A study of Mus musculus with 8 samples.

Results

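Laminins, nidogens, perlecan and hemicentin build the basement membrane, the thin sheet of matrix to which many cells attach. The transcripts of 10 such genes were examined: the laminin chains Lama2, Lama4, Lama5, Lamb1, Lamb2 and Lamc1, the nidogens Nid1 and Nid2, perlecan (Hspg2) and hemicentin 1 (Hmcn1). They were chosen by gene symbol with their values in these libraries known, so their own levels and fold changes are given as a description, without p-values. By symbol, 9 of the 10 were found among 26873 features, and all 9 were among the 15942 genes with enough counts to be fitted. No feature carried the symbol Hspg2. For 2 features the deposited annotation names perlecan, and they are described separately.

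The cells were bone marrow mesenchymal stem cells (BMSCs), the stromal progenitors that can form bone, labelled as wild type and kept in osteogenic differentiation. All of them received medium in which PCL scaffolds had been soaked for 72 h at 1.25 cm2 of scaffold per ml, in complete DMEM with 10% FBS. The design names a blank group, peptide S7, peptide E7 and both peptides together. The arms PCL-S, PCL-E and PCL-SE were read as the peptide arms and PCL-O, by elimination, as the blank. Each arm was profiled by RNA-seq on day 3 and day 7, with 1 library per arm and day and 8 libraries in all. The labels name 3 RNA samples, and whether they were pooled is not stated. A control of cells without any scaffold extract was not analysed here.

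In a basement membrane, each laminin is a trimer of 1 alpha, 1 beta and 1 gamma chain, and the trimers polymerise at the cell surface. A second network is made of collagen IV, and nidogens and perlecan bridge the networks. Cells hold on to laminin through integrins and dystroglycan. In bone marrow, laminins with the Lama4 and Lama5 chains are known from vessel walls and stromal cells, and laminin with the Lama2 chain from muscle and peripheral nerve.

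The 9 genes followed 3 courses across the libraries. Lama2 and Lama5 were several-fold higher with S7 on day 3 and were low in all arms on day 7. Lama4, Lamb1, Lamb2 and Lamc1 were slightly higher with S7 on day 3 and lower with S7 on day 7. Nid1, Nid2 and Hmcn1 were lower with S7 on both days, and more so on day 7. PCL-S and PCL-SE lay close to each other throughout, and none of the 9 genes differed between them by 2-fold on either day (0.207% of all genes did on day 3 and 0.326% on day 7).

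**Figure D1:**
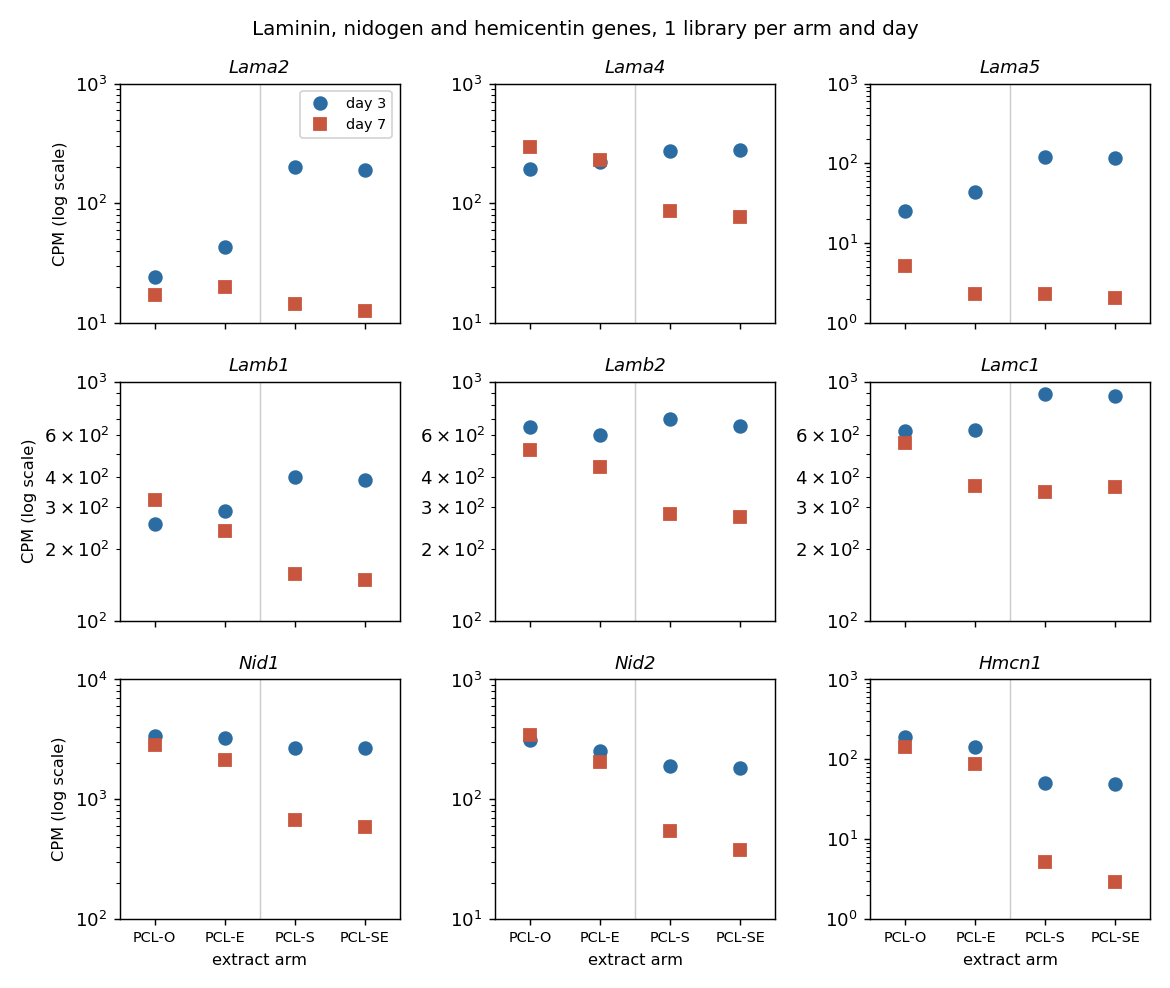
Level of each of the 9 genes in CPM (counts scaled to the library total, log axis) by extract arm, with circles for day 3 and squares for day 7; each point is 1 library, and the grey line separates the arms without S7 (left) from those with S7 (right). Hmcn1 ran from 2.91 CPM in PCL-SE on day 7 to 188 CPM in PCL-O on day 3.

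Library totals lay between 32950326 and 41754124 counts, so 3 counts, taken as the floor of detection, corresponded to 0.0718 to 0.0910 CPM. The TMM scaling factors were 1.15 and 1.16 in the S7 libraries of day 7 and 0.928 to 1.02 in the other 6. The stromal markers Thy1, Eng, Cd44, Pdgfra, Col1a1 and Col1a2 were present in every library, at 27.7 CPM or more. Their list, with Nt5e, summed to 8311 and 8685 CPM with S7 on day 7, against 22402 and 34858 CPM without, and on day 3 to 41340 and 44745 CPM with S7, against 27228 and 29094 CPM without. Most of these sums came from Col1a1 and Col1a2. Cd44 on day 7 stood at 503 and 505 CPM with S7 and at 225 and 290.0 CPM without. On day 3 Cd44 was nearly level, at 276 and 286 CPM with S7 and 259 and 275 CPM without. Of 8 pericyte and smooth muscle markers, whose list summed to 2917 and 3109 CPM with S7 on day 7 and to 8399 and 10600 CPM without, Rgs5 was at 0 in all libraries. On day 3 that list gave 8066 and 8086 CPM with S7 and 11120 and 11382 CPM without. Most of these sums was Acta2, at 2102 and 1868 CPM with S7 on day 7 and 8365 and 7121 CPM without. Myh11, Cnn1 and Notch3 were also lower with S7 that day. Cspg4 (358 and 362 CPM with S7) and Pdgfrb (498 and 567 CPM) lay below PCL-O (639 and 821 CPM) but not below PCL-E (355 and 489 CPM). Of 7 endothelial markers found, Cdh5, Tie1, Emcn and Cldn5 were at 0 everywhere. The endothelial list summed to 12.8 and 14.4 CPM with S7 on day 3 and to 5.68 and 6.83 CPM without. Nearly all of that was Tek, at 12.6 and 14.1 CPM with S7 and 5.42 and 6.37 CPM without. Vwf went the other way, at 0 and 0.117 CPM with S7 and 0.261 and 0.461 CPM without. On day 7 the endothelial list lay between 3.37 and 4.48 CPM. The list of leukocyte and macrophage markers stayed at 0.537 to 0.880 CPM, with Adgre1 at 0 throughout, the adipocyte list at 0 to 3.61 CPM and the epithelial list at 2.79 to 11.2 CPM. Of the 4 skeletal muscle markers found, Myod1, Myog and Ckm stayed under 1 CPM. That list summed to 69.9 and 70.0 CPM with S7 and to 126 and 158 CPM without S7 on day 3. On day 7 it summed to 0.987 and 3.19 CPM with S7 and to 20.5 and 41.4 CPM without, nearly all of it Acta1. Schwann cell markers summed to 20.5 and 20.7 CPM with S7 on day 7, mostly S100b, and to 8.29 to 14.2 CPM in the other libraries. The part of these markers in the results below was not tested. In bulk RNA, fewer cells of a type and less RNA per cell cannot be told apart.

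Lama2, the alpha chain of the laminin best known from muscle, was measured on day 3 at 24.0 CPM in PCL-O, 43.2 with PCL-E, 201 with PCL-S and 188 with PCL-SE. On day 7 the same arms gave 17.2, 20.0, 14.4 and 12.7 CPM. Both S7 libraries of day 3 stood far above the other 6. With S7 the fitted log2 fold change was 2.58 ± 0.23 (SE) on day 3 and -0.68 ± 0.24 on day 7.

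Lama5, an alpha chain of epithelial and vessel basement membranes, gave 25.6 CPM in PCL-O, 44.2 with PCL-E, 122 with PCL-S and 116 with PCL-SE on day 3. Its day 7 values were 5.16, 2.30, 2.28 and 2.08 CPM in that order. The S7 libraries were again highest on day 3, and every day 7 library was below every day 3 library. The S7 log2 fold change was 1.78 ± 0.35 on day 3. The day 7 value was -0.98 ± 0.47, but PCL-E and PCL-S hardly differed, and the value was -0.14 without PCL-O and -1.65 without PCL-E of that day. Leaving out PCL-E on day 3 moved the day 3 value to 2.45.

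Lama4, an alpha chain of mesenchymal and vessel laminins, gave 194 CPM in PCL-O, 221 with PCL-E, 273 with PCL-S and 278 with PCL-SE on day 3. On day 7 the values were 298, 229.7, 85.9 and 76.8 CPM. The S7 arms thus moved from highest on day 3 to lowest on day 7. The log2 fold changes with S7 were 0.42 ± 0.15 on day 3 and -1.92 ± 0.15 on day 7.

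Levels of different genes can be set side by side per length, in the authors' FPKM (fragments per kilobase, scaled to sequencing depth). Of the summed FPKM of the 3 alpha chains, Lama4 made up 87.1% in PCL-O and 81.3% in PCL-E on day 3, but 58.7% with PCL-S and 60.7% with PCL-SE. Lama2 made up 6.83% and 10.1% without S7 and 27.5% and 26.0% with it, and Lama5 6.05% and 8.56% against 13.8% and 13.3%. On day 7 the Lama4 share was 95.6% in PCL-O, 94.3% with PCL-E, 89.3% with PCL-S and 89.4% with PCL-SE. The mix of alpha chain transcripts was therefore most even in the S7 arms on day 3. These shares were computed from 1 library each.

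**Figure D2:**
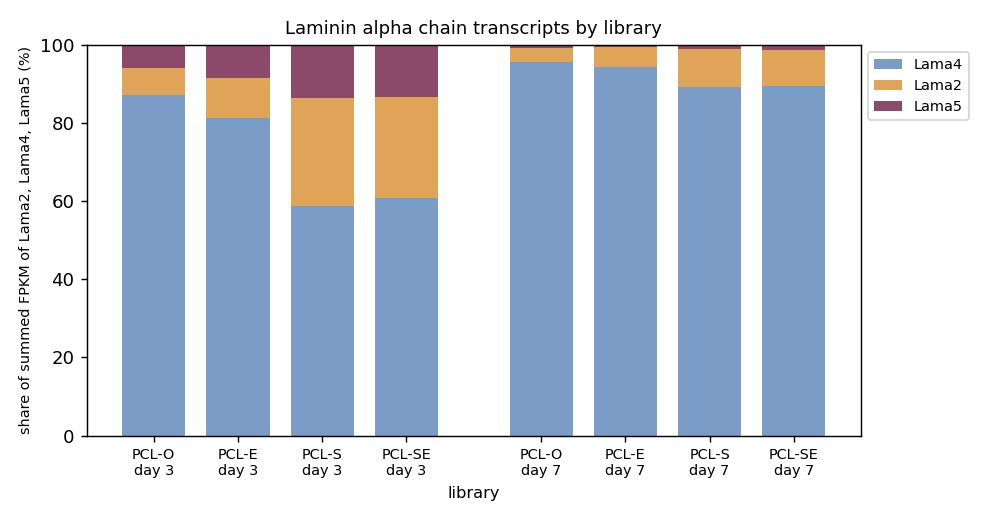
Share of the summed FPKM of Lama2, Lama4 and Lama5 taken by each chain (percent, stacked bars from 0 to 100), 1 bar per library, day 3 on the left and day 7 on the right. Lama4 falls to 58.7% and 60.7% in the S7 libraries of day 3 and is 89.3% or more in each day 7 library.

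The beta chain gene Lamb1 gave 254 CPM in PCL-O, 287 with PCL-E, 398 with PCL-S and 389 with PCL-SE on day 3, and 319, 238, 157 and 149 CPM on day 7. The S7 arms were the highest of day 3 and the lowest of day 7 (log2 fold changes 0.55 ± 0.15 and -1.09 ± 0.15). Lamb2, the other beta chain, gave 648, 598, 694 and 654 CPM on day 3 and 518, 440.0, 279 and 271 CPM on day 7. Its day 3 groups were nearly level (0.13 ± 0.09), since PCL-O and PCL-SE almost coincided, and its day 7 groups were well apart (-1.02 ± 0.10). Lamb2 made up 71.5% of the summed beta chain FPKM in PCL-O on day 3 and 61.6% to 67.2% in the other 7 libraries.

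Lamc1, the gamma chain of most laminins, gave 623 CPM in PCL-O, 626 with PCL-E, 889.7 with PCL-S and 867 with PCL-SE on day 3. By day 7 these were 556, 364, 346 and 362 CPM. The S7 arms stood clear of the others on day 3 (0.51 ± 0.18), whereas on day 7 PCL-E was level with them in CPM and PCL-O alone was high. In TMM-scaled CPM, which the fit uses, PCL-E stood at 358 on day 7, against 301 with PCL-S and 313 with PCL-SE. The fitted value was -0.59 ± 0.18. Without PCL-O on day 7, the fitted value of that day was -0.22.

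Nid1, a nidogen that links laminin to collagen IV, was the most abundant of the 9 genes per length, with a median of 442 FPKM over the 8 libraries, ahead of Lamc1 (98.2) and Lamb2 (91.5). It gave 3396 CPM in PCL-O, 3238 with PCL-E, 2698 with PCL-S and 2672 with PCL-SE on day 3, and 2849, 2125, 668 and 588 CPM on day 7. The S7 arms were modestly lower on day 3 (-0.29 ± 0.13) and several-fold lower on day 7 (-2.21 ± 0.13). The related Nid2 gave 314, 250.3, 189.9 and 182 CPM on day 3 and 341, 204, 53.7 and 37.8 CPM on day 7. It was lower with S7 on day 3 (-0.57 ± 0.17) and still lower on day 7 (-2.79 ± 0.18).

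Nidogen transcripts were also fewer relative to the laminin gamma chain in the S7 arms. The ratio of summed nidogen FPKM to Lamc1 FPKM was 6.03 in PCL-O and 5.62 in PCL-E on day 3, and 3.27 with PCL-S and 3.32 with PCL-SE. The day 7 ratios were 5.84 and 6.48 without S7 and 2.11 and 1.74 with S7. Because both terms come from the same library, this ratio does not depend on the scaling between libraries.

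Hmcn1, a very large matrix protein found at basement membranes and tissue junctions, had the widest range of the 9 genes, 64.8-fold from lowest to highest CPM. Lama5 followed with 58.5-fold, while Lamb2, Lamc1 and Lamb1 spanned 2.56-fold to 2.68-fold. Hmcn1 gave 188 CPM in PCL-O, 143 with PCL-E, 49.9 with PCL-S and 49.0 with PCL-SE on day 3, and 143, 86.2, 5.10 and 2.91 CPM on day 7. In counts, the S7 libraries of day 7 held 168 and 109 reads of Hmcn1 against 4720 and 3598 without S7. The log2 fold change with S7 was -1.70 ± 0.19 on day 3 and -5.07 ± 0.23 on day 7.

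Perlecan is the heparan sulfate proteoglycan of basement membranes. One feature annotated with it (ENSRNOG00000021437) gave 1325, 1313, 1991 and 1750.2 CPM on day 3, in the arm order above, and 1004, 588, 283 and 294 CPM on day 7. The other (NewGene_3294) gave 1695, 1678, 2334 and 2130.2 CPM on day 3 and 1142, 743, 470.3 and 454 CPM on day 7. Both were highest with S7 on day 3 and lowest with S7 on day 7, like Lama4 and Lamb1. Their S7 log2 fold changes were 0.51 ± 0.21 and 0.42 ± 0.17 on day 3, and -1.66 ± 0.22 and -1.24 ± 0.17 on day 7. Whether they are 2 parts of 1 gene was not tested, and reads could have been split between them.

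Over the 9 genes, arms with S7 and arms without did not overlap in scaled CPM for 6 genes higher and 3 lower on day 3, where 35.2% and 33.4% of all genes did so. On day 7 all 9 were lower without overlap (38.4% of all genes). The median log2 fold change of the 9 was 0.42 on day 3 and -1.09 on day 7, beside 0.00 and -0.03 over all genes tested. The difference between the 2 S7 effects was negative for all 9, from -1.10 ± 0.26 in Lamc1 to -3.37 ± 0.28 in Hmcn1. As the genes were picked from these values, the counts carry no weight of their own.

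**Figure D3:**
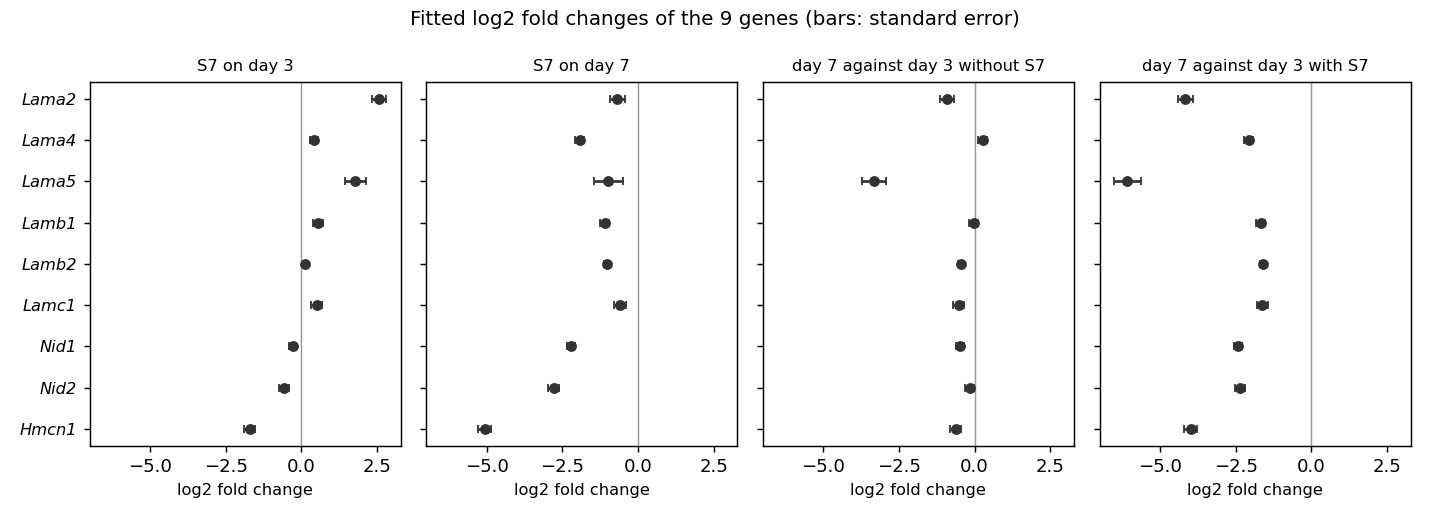
Fitted log2 fold change of each gene (points) with its standard error (bars) for S7 on day 3, S7 on day 7, and day 7 against day 3 without and with S7. With S7 on day 3 the values run from 2.58 in Lama2 to -1.70 in Hmcn1, and with S7 on day 7 all lie below 0.

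The same genes can be read as change over time. With S7, day 7 lay below day 3 for all 9 genes without overlap (41.8% of all genes). The log2 changes ran from -1.60 ± 0.10 in Lamb2 to -4.16 ± 0.25 in Lama2 and -6.08 ± 0.45 in Lama5. Without S7, 6 of the 9 were lower on day 7 without overlap (21.6%). Of these, Lama5 was furthest below, with -3.32 ± 0.41, and leaving out PCL-O or PCL-E on day 7 gave -4.14 or -2.62. Lamb1 (-0.03 ± 0.15), Nid2 (-0.14 ± 0.17) and Lama4 (0.28 ± 0.15) had overlapping days in those arms. The sign of Lamb1 there changed in 4 of 14 alternative fits (-0.30 to 0.23 with a library left out), and that of Nid2 in 1 of 14.

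For E7 in the fit over both days, the log2 changes ran from -0.50 ± 0.14 in Hmcn1 and -0.45 ± 0.12 in Nid2 to 0.16 ± 0.16 in Lama2, and 5 of the 9 changed sign in at least 1 of 14 alternative fits. In single libraries, PCL-E differed from PCL-O by 2-fold in none of the 9 genes on day 3 (0.370% of all genes). The largest differences that day were 0.78 in Lama2 and 0.72 in Lama5, on the log2 scale with 2 CPM added. On day 7 again none passed 2-fold (1.59%), but 8 of the 9 genes were lower in PCL-E, from -0.33 in Lamb2 to -0.83 in Nid2, and Lama2 stood at 0.11. In Lamc1 and Lama5 that day, PCL-E lay below PCL-O by nearly as much (-0.70 and -0.80) as PCL-S did (-0.95 and -0.90). With both peptides, PCL-SE on day 7 was lower than PCL-S by 0.51 in Hmcn1 and by 0.49 in Nid2, and within 0.20 of it in the other 7.

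Most of the 9 transcripts are long, and on day 7 length itself went with the S7 difference. Lengths derived from counts and FPKM ran from 4.85 kb in Nid2 to 18.8 kb in Hmcn1, with a median of 6.08 kb against 2.27 kb over all genes tested. Nid2, the shortest, was longer than 88.1% of them. On day 7 the median S7 log2 fold change over all other genes went from 0.27 under 1 kb to -0.27 at 4 to 8 kb and -0.56 at 8 kb or more. On day 3 the medians of the length classes lay between 0.03 and -0.03. Between PCL-E and PCL-O on day 7 the classes also differed, with 0.04 under 1 kb and -0.38 at 8 kb or more.

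With that trend removed, an alternative chosen after seeing the data, the day 7 difference was -4.30 in Hmcn1, -2.52 in Nid2, -1.85 in Nid1 and -1.55 in Lama4. It was -0.74 in Lamb1, -0.67 in Lamb2, -0.36 in Lama5, -0.24 in Lamc1 and -0.15 in Lama2. All 9 kept their sign. The change with S7 over time became -3.50 in Lama2, -5.34 in Lama5 and -3.00 in Hmcn1. What produced the length trend was not tested.

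**Figure D4:**
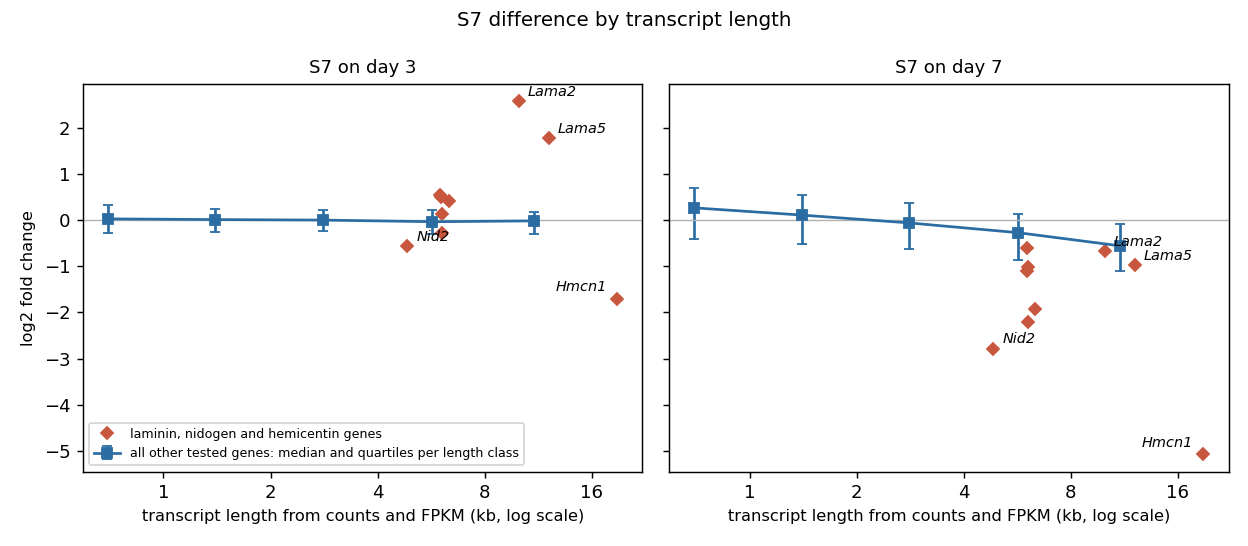
S7 log2 fold change against transcript length (kb, log axis) on day 3 and day 7, with diamonds for the 9 genes and squares with bars for the median and quartiles of all other genes tested in 5 length classes. The class medians stay between 0.03 and -0.03 on day 3 and run from 0.27 to -0.56 on day 7, where Hmcn1 (-5.07) and Nid2 (-2.79) lie far below them.

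The rest of the basement membrane machinery was followed through 6 lists with 72 genes, of which 69 were found and 64 had enough counts. In the edgeR quasi-likelihood test with Benjamini-Hochberg adjustment (called at an adjusted p under 0.05), 16 of the 64 were called higher and 12 lower with S7 on day 3 (7.10% and 6.87% of all genes). On day 7, 7 were called higher and 39 lower (24.9% and 26.2% of all genes). Their median log2 fold change was 0.10 on day 3 and -1.14 on day 7, with 3965 genes called higher and 4172 lower over all genes that day (5642 and 3010 under total-count scaling). The S7 effect itself differed between the days for 42, with 2 called higher on day 7 relative to day 3 (13.2% of all genes) and 40 lower (15.5%; over all genes 2105 and 2473, or 3721 and 1750 under total-count scaling). The day 3 count rested on single libraries: it fell without any 1 library of that day, and so did the count over all genes (2227 in the main fit). Each such fit leaves 1 library in a group. The median log2 fold change of the 64 was then 0.08 without PCL-S, 0.00 without PCL-O, 0.03 without PCL-SE and 0.18 without PCL-E. Of the 28 genes, 7 were called whichever library was left out, against 39 of 46 on day 7.

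**Figure D5:**
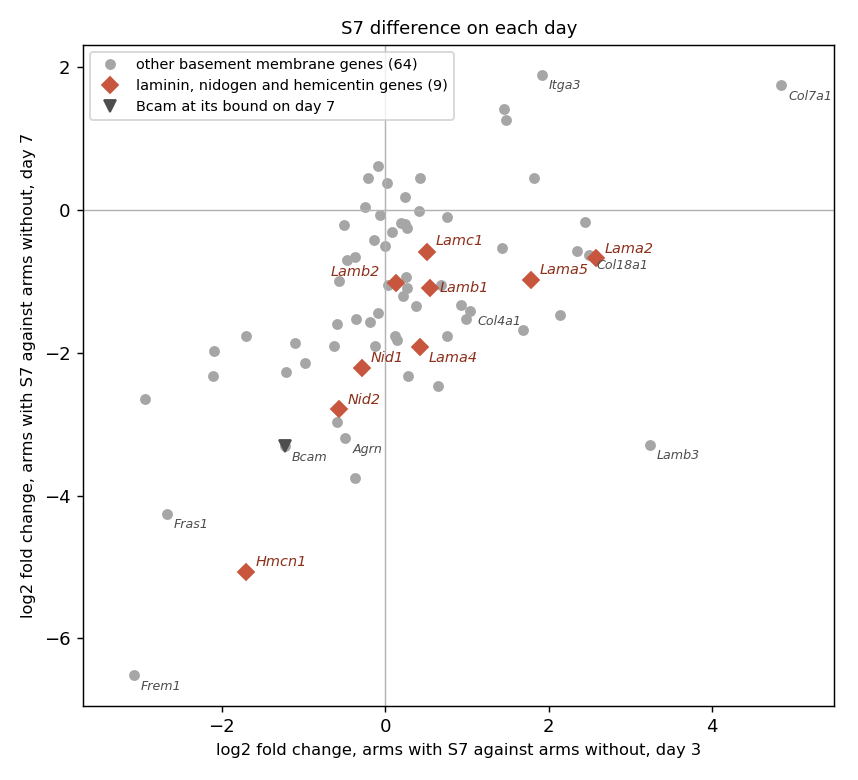
S7 log2 fold change on day 3 (horizontal) against day 7 (vertical) for the 9 genes (diamonds) and 64 other basement membrane genes (circles), with Bcam drawn as a triangle at its bound on day 7 because no read was counted there with S7. Frem1 (-3.08 and -6.52) and Fras1 (-2.68 and -4.25) lie at the lower left with Hmcn1, and Col7a1 (4.85 and 1.75) at the upper right.

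Among the other laminin chains, 3 of 4 were found and 1 had enough counts. Lamb3, the beta chain of an epithelial laminin, gave 0.174 and 0.202 CPM in PCL-O and PCL-E on day 3, and 1.37 (PCL-S) and 2.26 (PCL-SE) with S7. Its day 7 levels were 0.850 and 0.718 CPM without S7, 0 with S7 alone and 0.187 with both peptides. The day 3 rise (3.24 ± 0.74, adjusted p = 0.0326) was not called when any 1 of the 4 day 3 libraries was left out. The day 7 fall (-3.28 ± 0.84, adjusted p = 0.0163) remained called in all such fits, at -7.71 to -2.39, the lowest value without PCL-SE of day 7. Lama1 and Lamc3 stayed at 0.232 CPM or less.

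Collagen IV forms the second network, mostly from the Col4a1 and Col4a2 chains. Col4a1 gave 2067 CPM in PCL-O, 2929 with PCL-E, 5233 with PCL-S and 4926 with PCL-SE on day 3, and 2144, 1898, 960.1 and 822 CPM on day 7. It rose with S7 on day 3 (1.04 ± 0.18, adjusted p = 0.0135) and fell on day 7 (-1.41 ± 0.18, adjusted p = 0.00116). The values of Col4a2 were 0.93 ± 0.16 (adjusted p = 0.0120) and -1.33 ± 0.16 (adjusted p = 0.000827). Both day 3 calls were lost without PCL-O, PCL-S or PCL-SE of that day. On day 7, 8 of 8 genes of this list fell, with a median of -1.59, including Col4a3 (-3.75 ± 0.30, or -4.35 without PCL-S of that day), Col4a5 (-1.90 ± 0.09) and the crosslinking enzymes Loxl2 (-1.83 ± 0.10) and Pxdn (-1.77 ± 0.26). The smallest fall of the list was that of Col4a4 (-1.05 ± 0.34), whose call was lost without any 1 of 5 libraries and with the length trend removed (edgeR adjusted p = 0.117). Over all genes, 26.2% were called lower on day 7. On day 3, 2 of 8 rose and none was called lower (7.10% and 6.87% of all genes).

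Of 4 other basement membrane collagens, 2 rose with S7 on day 3 (7.10% of all genes). Col7a1, which forms anchoring fibrils, gave 1.88 and 2.71 CPM without S7 and 66.0 and 61.9 CPM with S7 (4.85 ± 0.24, adjusted p = 0.000731). On day 7 it remained higher with S7, at 15.0 and 20.5 CPM against 3.13 and 6.01 (1.75 ± 0.21, adjusted p = 0.000902). Col18a1, whose end fragment is endostatin, gave 120.1 and 112 CPM with S7 on day 3 against 18.6 and 22.9 (2.50 ± 0.31, adjusted p = 0.00444). That call was lost without PCL-O of day 3. Col15a1 fell on day 7, to 248 and 186 CPM with S7 against 1177 and 872 without (-2.47 ± 0.19, adjusted p = 0.000235).

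Of 20 other basement membrane and linker proteins, 7 rose and 5 fell with S7 on day 3 (7.10% and 6.87% of all genes). On day 7, 1 rose and 12 fell (24.9% and 26.2% of all genes). The FRAS1 complex anchors epithelium to the matrix beneath it during development. Its gene Fras1 gave 211 and 161 CPM in PCL-O and PCL-E on day 3, against 26.4 and 29.3 with S7 (-2.68 ± 0.42, adjusted p = 0.00954). Day 7 values were 167 and 51.1 CPM without S7 and 6.74 and 5.60 with it (-4.25 ± 0.47, adjusted p = 0.000661). Frem1 of the same complex was at 0.212 and 0.160 CPM with S7 on day 7, against 7.64 CPM or more without (-6.52 ± 0.45, adjusted p = 0.000176). Without PCL-O on day 7 the Frem1 value was -5.82 and that of Fras1 -3.33, while without PCL-E that of Fras1 was -4.94. With the length trend removed, Fras1 gave -3.60. The day 3 call of Fras1 was lost without PCL-O, PCL-S or PCL-E of that day, and that of Frem1 without PCL-S. Agrn, a laminin-binding proteoglycan, fell on day 7 to 21.0 and 18.2 CPM against 197 and 116 (-3.19 ± 0.20, adjusted p = 0.000131). Matn2, a filament-forming matrilin, rose on day 3 to 15.6 and 15.1 CPM with S7 against 2.61 and 3.08 (2.45 ± 0.16, adjusted p = 0.00105).

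Of 16 genes listed with the receptors for laminin and collagen IV, 3 rose and 5 fell with S7 on day 3 (7.10% and 6.87% of all genes). On day 7, 3 rose and 10 fell (24.9% and 26.2% of all genes). Itgb1, the beta chain shared by most of these integrins, gave 4139 and 4301 CPM with S7 against 3692 and 3632 on day 3 (0.22 ± 0.08, adjusted p = 0.135). On day 7 it fell to 1841 and 1718 CPM, against 3500.1 and 3503 without S7 (-1.20 ± 0.09, adjusted p = 0.000180). Its partners Itga1, a collagen receptor chain, and Itga8 fell on day 7 (log2 fold changes -2.96 ± 0.22 and -2.32 ± 0.15), as did Itga7, a laminin receptor chain (-1.91 ± 0.11). Itga3, another laminin receptor chain, rose on both days (1.92 ± 0.32, adjusted p = 0.0119, and 1.90 ± 0.33, adjusted p = 0.00354). Its values on day 7 were 38.0 and 30.7 CPM with S7 and 4.95 and 11.9 CPM without, and its day 3 call was lost without any 1 of the 4 day 3 libraries. Dag1, the laminin receptor dystroglycan, gave 385 and 378 CPM with S7 on day 3 and 506 and 491 CPM without (-0.37 ± 0.09, adjusted p = 0.0350). Day 7 levels were 317 and 287 CPM against 430.2 and 386 (-0.66 ± 0.09, adjusted p = 0.00122, or -0.34 with the length trend removed). The day 3 call was lost without any 1 of 6 libraries, all but PCL-O and PCL-E of day 7. Bcam, a receptor for the Lama5 chain, had no read in either S7 library of day 7 and 50 reads in the other 2, so that it was at least 9.93-fold lower (floor of 3 counts per library, TMM-scaled).

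The dystroglycan-associated complex and dystroglycan glycosylation were followed through 15 genes, without Dag1 itself. With S7, 1 rose and 2 fell on day 3 (7.10% and 6.87% of all genes). On day 7, 2 rose and 7 fell (24.9% and 26.2% of all genes). Dmd, dystrophin, fell on day 7 to 48.9 and 54.6 CPM against 139 and 118 (-1.53 ± 0.12, adjusted p = 0.000237, or -0.91 with the length trend removed). Sspn, sarcospan of the same complex, fell on day 7 to 9.44 and 10.3 CPM against 29.1 and 22.2 (-1.59 ± 0.15, adjusted p = 0.000371).

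Over time, 5 of the 64 genes rose and 50 fell from day 3 to day 7 with S7 (24.4% and 26.4% of all genes), and 2 rose and 7 fell without S7 (0.671% and 0.935% of all genes). Over all genes with S7, total-count scaling turned 3889 higher and 4201 lower into 6255 and 2685. All 8 genes of the list of collagen IV chains and crosslinking enzymes fell over time with S7, Col4a1 by 2.82 ± 0.19 and Col4a2 by 2.76 ± 0.16. For E7, edgeR and DESeq2 called 0 of the 64, and 7 had an unadjusted p under 0.05 with each tool. DESeq2 called 1 of all genes for E7 and edgeR 0.00%. Over all 15942 genes, 589 in edgeR and 445 in DESeq2 had p under 0.05 before adjustment, a share under 0.05 with each tool. The number called without S7, 9, rested on single libraries, and so did the number over all genes (256 in the main fit). Both fell without any 1 library of day 3 and without PCL-S or PCL-SE of day 7. Both rose without PCL-E or PCL-O of day 7. DESeq2 called 22 of the 64, and 827 over all genes.

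The genes whose course over the 8 libraries was most like the 2 widest-ranging genes were looked up among 10663 genes, by Pearson's r of log2 CPM with 0.5 added. For Hmcn1 they were Gpc4 (0.998), Abi3bp (0.997), Timp3 (0.997), Acta2 (0.996) and Fam13b (0.996). Nid2 ranked 16th in that order with 0.990. For Lama5 they were Ppp1r3b (0.993), Slfn5 (0.987), Tgfb1i1 (0.984), Smtn (0.982) and Piezo1 (0.980). Lamc1 ranked 20th for Lama5 with 0.963, and Lama2 stood at 0.917. The 8 points share 2 days and 4 arms, so these values describe these libraries only.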

How the data were processed

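The deposited table holds counts (whole numbers) and FPKM, the latter scaled to transcript length and depth by the authors, per the file headers. Aligner and counter were not given in the sources used here. Of 26873 features, 22050 carry rat Ensembl identifiers and none mouse ones, although the labels give mouse and mm10, so symbols follow the table and no coordinates or sequences are given. CPM were scaled to library totals here.

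In edgeR 4.0.16 under R 4.3.3, low counts were removed by filterByExpr and TMM factors computed. A quasi-likelihood model with terms for E7, S7, day and S7 by day over all 8 libraries left 3 residual degrees of freedom (coefficient of variation 0.137). With 1 library per arm and day, error is the departure from this fit, and nothing says that libraries came from separate cultures. Genes were called at an adjusted p under 0.05. Counts were simulated with the dispersions of these data, with 100 genes changed 2-fold, 100 changed 4-fold and the others unchanged. For S7 on day 7, 73% and 95% of the changed genes were recovered and 18 unchanged genes were called, with 15633 genes fitted. In the data 8137 genes were called for S7 on day 7, so these rates may not carry over. Single libraries were compared as log2 ratios of TMM-scaled CPM with 2 added, without a test.

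The genes, lists and model were chosen with earlier results of these data known. Some genes of the lists are not reported here and were left out of the counts after these were first made. Of each list, up to 4 called genes with the largest fold change and at least 1 CPM could be named per comparison, besides Col4a1, Col4a2, Itgb1, Dag1 and the cell type markers. DESeq2 1.42.0, other scalings, filters and fits, leaving out libraries and, added after seeing the data, offsets that remove each library's trend with gene length were the alternatives.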

Additional observations from a re-analysis of the deposited data

Results flagged for a closer look

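All results here were noted because the S7 effect differed between day 3 and day 7. Values are the day 7 effect minus the day 3 effect, on the log2 scale. For the 6 laminin genes, both S7 libraries lay above both others on day 3 (35.2% of all genes) and below them on day 7 (38.4%). The share of all genes doing both was not computed. Some gaps were narrow in TMM-scaled CPM. Lamb2 on day 3 had 699 in PCL-SE and 693 in PCL-O, and Lama5 on day 7 had 1.98 in PCL-S and 2.26 in PCL-E. The differences between the S7 effects were -3.26 in Lama2, -2.35 in Lama4, -2.76 in Lama5, -1.65 in Lamb1, -1.15 in Lamb2 and -1.10 in Lamc1. Lama5 ran from -3.47 to -1.96 with a library left out, the lowest without PCL-E and the highest without PCL-O of day 7. The genes were chosen from these values, so the differences were not tested and are given as a description.

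Of the 64 other basement membrane genes, 42 had a called interaction in edgeR, 2 higher (13.2% of all genes) and 40 lower (15.5%). For 8 of them S7 was called in opposite directions on the 2 days, higher on day 3 and lower on day 7. Over all genes, 7.10% were called higher on day 3 and 26.2% lower on day 7, and the share with both was not computed. These 8 genes were named after their values were seen. The interactions were -2.45 ± 0.26 in Col4a1 and -2.26 ± 0.22 in Col4a2. They were -2.52 ± 0.28 in Tinagl1, -1.96 ± 0.17 in the fibulin gene Fbln1, -2.52 ± 0.20 in Fbln2 and -3.37 ± 0.22 in Ecm1. In Itga10, a collagen receptor chain, the value was -3.61 ± 0.56 (-2.85 without PCL-O of day 7). In Lamb3, with 2.26 CPM at most, it was -6.52 ± 1.12, and -10.95 to -5.63 with a library left out (not called without PCL-SE of day 3). The day 3 calls of Fbln1 and Ecm1 held whichever library was left out, and those of the other 6 did not. On day 7, Fbln1 was not called without PCL-SE and Itga10 without PCL-O, PCL-S or PCL-SE of that day.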

How the results depend on the processing

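The signs of the 9 laminin, nidogen and hemicentin genes for S7 on day 3, S7 on day 7, their difference and time with S7 were unchanged in 14 alternative fits, while 5 of them for E7 and 2 for time without S7 changed sign in at least 1. Under total-count scaling the median S7 log2 fold change of all genes on day 7 moved from -0.03 to 0.19. With a library left out, 8 to 38 of the 64 other basement membrane genes were called for S7 on day 3 (main 28), and 0 to 21 for time without S7 (main 9; 22 with DESeq2). With 0.5 instead of 2 added, 1 of the 9 genes, Lama5, passed 2-fold between PCL-E and PCL-O on day 7 (main 0). Among the other basement membrane genes the sign reversed in 3 cases where the main or the alternative fit called the gene, named for that reason. They were Itga6 for time with S7 (0.0691) with the length trend removed and Efemp2 for time with S7 under total-count scaling (0.00558). The third was Pxdn for time without S7, which was not called in the main fit (-0.571 to 0.438 with a library left out, the highest without PCL-E of day 7). No paired analysis was possible because each arm and day has 1 library and the labels give no replicate numbers. Depth limits Lama5 and Hmcn1 most, with 75 and 78 reads and with 168 and 109 reads in the S7 libraries of day 7.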
